A study of Mus musculus with 20 samples.

Results

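Control-treated mouse morulae were compared with unperturbed 4-cell embryos by RNA sequencing. The morula side was the 2 siControl libraries, from embryos collected 72 hours after insemination, and the 4-cell side was the 2 WT libraries, from embryos collected 48 hours after insemination. These 4 libraries were chosen by their titles out of 16 RNA libraries and 20 samples in the series. The study asks how Pcgf5 acts around zygotic genome activation, with a knockdown experiment at the late 2-cell and morula stages and a 4-cell experiment on Hetero KO, Homo KO and WT embryos. Both groups came from superovulated oocytes fertilised in vitro and cultured in KSOM medium, and each library was made from polyA RNA of 10 pooled embryos with the SMART-Seq v4 PLUS kit. siControl embryos had been electroporated with a non-targeting small interfering RNA 3 hours after insemination. WT embryos belong to the experiment without electroporation, and no strain is named for either group. Stage, hours in culture, electroporation with siRNA and experiment therefore change together between the groups and cannot be told apart. The labels give every sample the same batch value, which does not separate the experiments.

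Between the 4-cell and morula stages the mouse embryo finishes replacing RNA inherited from the oocyte with its own transcripts. Blastomeres then flatten against each other through E-cadherin contacts in compaction, build apical and basolateral domains, and outer cells begin the trophectoderm programme while inner cells keep pluripotency factors. Hippo signalling reads cell position and controls whether YAP1 and WWTR1 reach TEAD4 in the nucleus, which sets Cdx2 and Gata3 in outer cells.

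The siControl morula libraries held 48876604 and 48572543 expected counts and the WT 4-cell libraries 14329188 and 17871206. Genes at 1 TPM (transcript abundance scaled for length and library size) or more numbered 8947 and 9018 in siControl morula and 10349 and 9484 in WT 4-cell. Mean fragment length was 192.0 and 194.3 bases in siControl morula and 214.7 and 231.2 bases in WT 4-cell. Across genes, the 2 morula libraries had a Spearman correlation of 0.979 and the 2 4-cell libraries one of 0.942, a description of these libraries in which genes are not independent. WT replicate 2 lay nearer the morulae (0.837 and 0.845) than WT replicate 1 did (0.800 and 0.807), so results that rest on either WT library are given without it where they change. No label says whether the 2 libraries of a group came from separate fertilisations or cultures, so a p-value here reflects only library-to-library spread, which may be technical. Levels are CPM (counts relative to the library total, scaled by TMM) and are relative within a library, so that fewer cells of a type and less RNA per cell cannot be told apart.

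Of 13671 genes tested with edgeR's quasi-likelihood test, 38.7% passed at an adjusted p of 0.05. In siControl morulae 2581 genes were higher (18.9%) and 2708 lower (19.8%) than in WT 4-cell embryos. Changes were large: 2240 of the higher and 2347 of the lower genes differed by more than 1 on the log2 scale, and 297 and 300 by more than 5. The groups did not overlap for 74.3% of all genes tested, so a gene without overlap is the common case here. Of the genes called higher, 186 had no count in either WT library, and of those called lower, 108 had none in either morula library. Leaving out 1 library gave 1726 to 2029 genes higher and 1715 to 2400 lower, the fewest lower without siControl morula replicate 1. On log2(TPM + 1) with limma the split moved to 1813 higher and 3847 lower, or 32% higher among the calls against 48.8% with edgeR, and the median of all genes moved to -0.29, against 0.03 with edgeR.

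**Figure D1:**
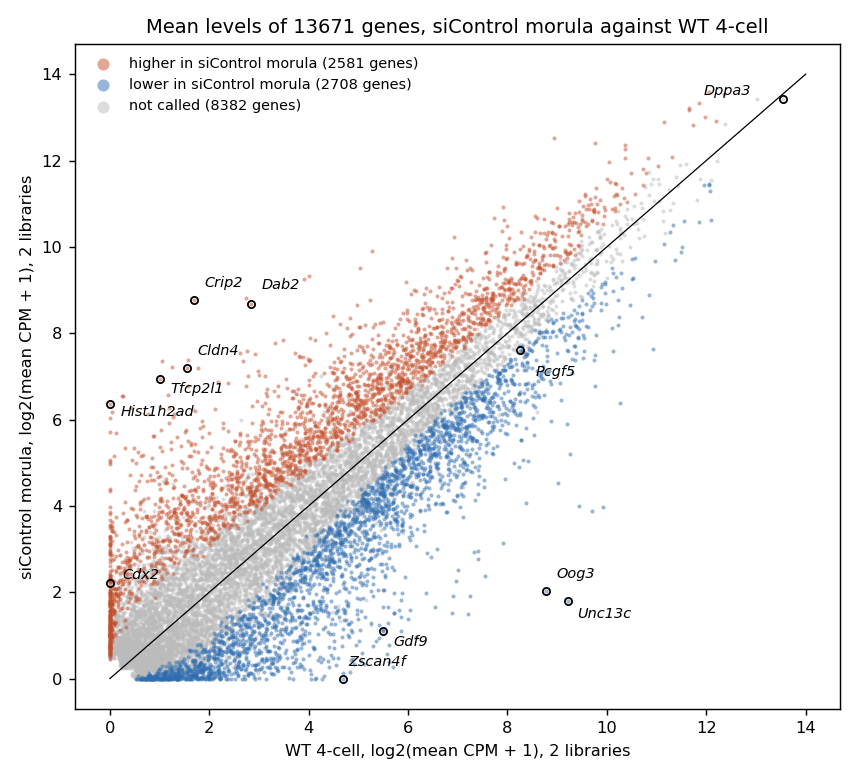
Mean level of each gene tested in siControl morula (vertical axis) and WT 4-cell (horizontal axis), both as log2(mean CPM + 1) over 2 libraries, with the line of equal levels. The 2581 genes called higher and 2708 called lower lie on either side of the line, while Dppa3 and Pcgf5 were not called.

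The stage labels were checked against defining markers. Of the morula markers, Cdx2, Gata3, Krt8, Krt18, Nanog and Cdh1 were higher in siControl morulae, while Tfap2c, Sox2 and Atp1b1 were not called. Of the markers of 4-cell and earlier embryos, Zscan4d, Klf17, Gdf9, Bmp15 and Obox5 were lower in siControl morulae, although Obox5 missed the threshold without siControl morula replicate 1 (edgeR adjusted p 0.114), siControl morula replicate 2 (0.111) or WT replicate 1 (0.0648). Zp3, a coat protein of the oocyte, had 30.0 and 27.3 CPM in siControl morulae and 36.8 and 57.5 CPM in WT 4-cell embryos and was not called. Zfp352, a 2-cell retrogene, had 30.7 and 9.99 CPM in siControl morulae and 73.8 and 1.74 CPM in WT 4-cell embryos, so that its groups overlapped.

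Pluripotency regulators were mostly higher in the morulae. Of 30 tested members, 16 were higher and 3 lower, with a median log2 fold change of 1.79 against 0.03 over all genes. The mean level of the list, as log2(CPM + 1), was 5.23 and 5.13 in siControl morulae and 3.47 and 3.84 in WT 4-cell embryos. siControl late 2-cell libraries, from the same experiment as the morulae, stood at 3.93 and 3.95, above both WT libraries. Pou5f1, which encodes OCT4, the factor that maintains the inner cells, had 60.8 and 45.3 CPM in siControl morulae, against 1.91 and 1.86 CPM in WT 4-cell embryos. Both morula libraries lay far above both 4-cell libraries, a log2 fold change of 4.81 (SE 0.688) with an adjusted p of 8.44e-05 in edgeR. Nanog, a homeobox factor of the epiblast, had 48.8 and 23.1 CPM in siControl morulae and 4.18 and 3.25 CPM in WT 4-cell embryos, a log2 fold change of 3.27 (SE 0.834; edgeR adjusted p 0.00663).

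Tfcp2l1, a factor of the naive pluripotent state, showed the largest fold among called members with counts in both groups. It had 128 and 116 CPM in siControl morulae and 0.430 and 1.57 CPM in WT 4-cell embryos, a log2 fold change of 6.92 (SE 0.750; edgeR adjusted p 1.14e-05). Gdf3, a ligand of the TGF-beta family, had 54.3 and 41.3 CPM in siControl morulae and 1.29 and 0.348 CPM in WT 4-cell embryos. Tbx3, Zfp42 (REX1), Utf1, Klf5, Dppa5a, Esrrb, Klf4, Lin28a, Dnmt3l, Carm1 and Tet2 were also higher, by log2 fold changes between 1.06 and 4.35. Nr0b1 (DAX1) had 2.02 and 3.62 CPM in siControl morulae and no count in WT 4-cell embryos, at least 31.5-fold higher. Without siControl morula replicate 1 or WT replicate 2 Nanog missed the threshold, at edgeR adjusted p values of 0.0536 and 0.0543. Klf4, Esrrb, Carm1, Lin28a and Nr0b1 each missed it without at least 1 library, at edgeR adjusted p values between 0.0549 and 0.126.

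The list did not move as a block. Klf17, a Kruppel-like factor abundant in early cleavage, had 44.1 and 17.4 CPM in siControl morulae and 257 and 301 CPM in WT 4-cell embryos, a log2 fold change of -3.18 (SE 0.434; edgeR adjusted p 6.92e-05). Fgf4, the ligand that inner cells send to their neighbours, had 5.19 and 4.76 CPM in siControl morulae and 14 and 27.1 CPM in WT 4-cell embryos, and was lower by a log2 fold change of -2.05 (SE 0.362; edgeR adjusted p 0.000461). Both 4-cell libraries lay above both morula libraries for each of these genes. Tcl1, a co-activator of AKT, was the third member that was lower, but not without siControl morula replicate 1 (edgeR adjusted p 0.112) or replicate 2 (0.0692). Sox2 stayed at the edge of detection, with 0.195 and 1.04 CPM in siControl morulae and 0 and 0.696 CPM in WT 4-cell embryos.

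Of 33 tested trophectoderm genes, 16 were higher (48.5%) and 1 lower (3.03%), beside 18.9% and 19.8% over all genes. The median log2 fold change was 1.97. The mean level of the list, as log2(CPM + 1), was 3.9 and 4.01 in siControl morulae and 2.39 and 2.21 in WT 4-cell embryos. siControl late 2-cell libraries, from the same experiment as the morulae, stood at 3.41 and 3.2, above both WT libraries. The list therefore did not follow the order of hours after insemination. Cdx2, the homeobox factor that defines trophectoderm, maps to chromosome 5 at 147300900 to 147307249 (GRCm38.p6). It had 3.61 and 3.62 CPM in siControl morulae and no count in either WT 4-cell library, at least 40.4-fold higher against a floor of 3 counts over the group (edgeR adjusted p 0.00696). Cdx2 was thus present at low level in both morula libraries. Gata3, which acts beside CDX2 in outer cells, had 43.6 and 34.1 CPM in siControl morulae and 1.97 and 0.754 CPM in WT 4-cell embryos, a log2 fold change of 4.84 (SE 1.20; edgeR adjusted p 0.00714). Elf3, an ETS factor of epithelia, had 48.1 and 30.8 CPM in siControl morulae and 0 and 0.812 CPM in WT 4-cell embryos.

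Epithelial effectors of the trophectoderm were higher too. Krt18, a keratin, had 24.6 and 35.6 CPM in siControl morulae and 1.78 and 0.986 CPM in WT 4-cell embryos, a log2 fold change of 4.44 (SE 0.799; edgeR adjusted p 0.000525). Its partner Krt8 had 23.3 and 15.3 CPM in siControl morulae and 2.89 and 1.16 CPM in WT 4-cell embryos. Aqp3, a water and glycerol channel, had 46.2 and 49.5 CPM in siControl morulae and 0.0615 and 1.62 CPM in WT 4-cell embryos. The groups did not overlap for any of these 3 genes. Dab2, an endocytic adaptor that is also on the primitive endoderm list, had 340 and 480 CPM in siControl morulae and 6.15 and 6.20 CPM in WT 4-cell embryos. Its log2 fold change was 6.05 (SE 1.34; edgeR adjusted p 0.00438). Its partner receptor Lrp2 had 51.7 and 68.3 CPM in siControl morulae and 2.21 and 5.51 CPM in WT 4-cell embryos. The glucose transporter Slc2a1, the fatty acid binding protein Fabp3, S100a11, Ptges, Gm2a, Fgfr2, Krt19 and Esrrb completed the members that were higher, by log2 fold changes between 1.56 and 4.91. Gata3 missed the threshold without WT replicate 2 (edgeR adjusted p 0.0618), and Dab2 (0.0519), Lrp2 (0.069) and Slc2a1 (0.103) without WT replicate 1. Krt19, Fgfr2, Ptges and Esrrb each missed it without at least 1 library, at edgeR adjusted p values between 0.0588 and 0.138.

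Several trophectoderm regulators were not called. Tead4, the DNA-binding partner of YAP1, had 40.2 and 35.6 CPM in siControl morulae and 31.4 and 36.6 CPM in WT 4-cell embryos, with overlapping groups. Tfap2c, a factor that acts beside TEAD4, had 58.5 and 56.6 CPM in siControl morulae and 42.3 and 49.8 CPM in WT 4-cell embryos, a log2 fold change of 0.32 (SE 0.301) that was not called. Hand1, a factor of later trophoblast, had 32.2 and 27.8 CPM in siControl morulae and 55.2 and 40.8 CPM in WT 4-cell embryos and was not called either. Mbnl3, an RNA-binding protein, was the 1 member that was lower, at 4.87 and 9.09 CPM in siControl morulae and 27.7 and 56.4 CPM in WT 4-cell embryos.

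**Figure D2:**
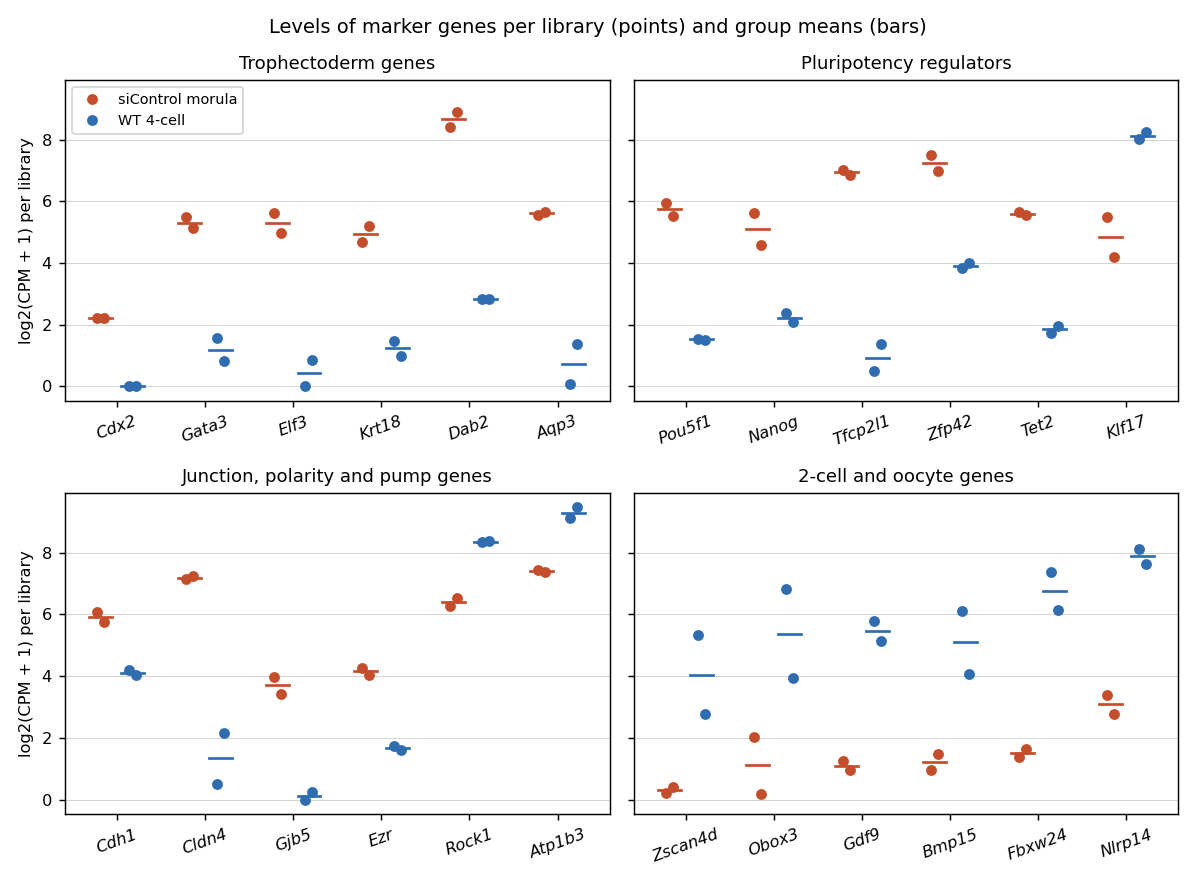
Levels of 24 genes in each library as log2(CPM + 1), with siControl morula left of WT 4-cell for each gene; points are libraries and bars the mean of 2. Cdx2 had no count in either WT library, and Klf17, Rock1, Atp1b3 and the 2-cell and oocyte genes were lower in both siControl morula libraries.

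The promoters of genes that moved in opposite directions are printed because these regulators and oocyte genes carry the opposite directions described here. Each run is the 250 bases before the start of the gene from the RefSeq promoter table of GRCm38.p6, read 5′ to 3′ on the gene's strand. Capitals mark matches on either strand to a TEAD motif (CATTCC), a KLF motif (CCACCC), a GC box (GGGCGG) or an E-box (CACGTG), and matches of the KLF motif and the GC box can overlap. Cdx2 is at chr5:147307250-147307499 (minus strand), Elf3 at chr1:135258473-135258722 (minus strand) and Pou5f1 at chr17:35505782-35506031 (plus strand), all higher in siControl morulae. Zscan4d is at chr7:11166149-11166398 (minus strand) and Oosp1 at chr19:11691052-11691301 (minus strand), both lower in siControl morulae.
Cdx2: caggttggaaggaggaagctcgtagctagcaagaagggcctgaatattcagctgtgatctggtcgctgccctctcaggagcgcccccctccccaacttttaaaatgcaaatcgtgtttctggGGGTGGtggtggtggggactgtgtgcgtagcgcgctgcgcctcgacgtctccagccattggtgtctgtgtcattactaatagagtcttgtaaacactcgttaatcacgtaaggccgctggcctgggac
Elf3: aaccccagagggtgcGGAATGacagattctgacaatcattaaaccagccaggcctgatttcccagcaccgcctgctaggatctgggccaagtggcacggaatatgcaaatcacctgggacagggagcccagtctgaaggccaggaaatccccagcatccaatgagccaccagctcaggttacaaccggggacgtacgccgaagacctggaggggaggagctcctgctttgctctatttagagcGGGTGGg
Pou5f1: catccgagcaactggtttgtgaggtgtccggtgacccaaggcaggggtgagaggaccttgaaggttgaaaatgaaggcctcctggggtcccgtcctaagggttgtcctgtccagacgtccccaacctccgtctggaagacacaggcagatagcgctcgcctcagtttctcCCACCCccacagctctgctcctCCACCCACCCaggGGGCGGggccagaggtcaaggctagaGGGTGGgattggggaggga
Zscan4d: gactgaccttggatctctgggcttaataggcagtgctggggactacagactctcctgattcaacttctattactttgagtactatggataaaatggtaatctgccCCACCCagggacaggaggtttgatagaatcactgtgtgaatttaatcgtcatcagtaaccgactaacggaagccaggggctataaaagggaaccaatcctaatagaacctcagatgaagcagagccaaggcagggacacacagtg
Oosp1: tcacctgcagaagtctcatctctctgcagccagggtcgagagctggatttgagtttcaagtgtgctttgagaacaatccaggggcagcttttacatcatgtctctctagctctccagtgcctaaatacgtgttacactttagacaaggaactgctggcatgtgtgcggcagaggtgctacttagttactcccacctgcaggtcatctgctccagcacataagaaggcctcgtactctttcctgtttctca

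Among the 5 printed promoters, Pou5f1 held 5 matches, of which 4 were KLF motifs and 1 a GC box. Elf3 held a TEAD motif and a KLF motif, Cdx2 and Zscan4d a KLF motif each, and Oosp1 no match. Promoters were found for 15 of the 16 trophectoderm genes that were higher, and 9 of them (60%) held a KLF motif, against 32.2% of 10903 tested genes with a promoter and 27.7% of all 27025 genes in the table. A TEAD motif was in 2 of these 15 promoters (13.3%), against 10.5% of tested genes and 12.6% of all genes, and an E-box in 1 (6.67%), against 8.39% of tested genes and 6.05% of all genes. Promoters were found for 37 of the 46 oocyte and maternal genes that were lower, and 4 of them (10.8%) held a GC box, against 56.7% of tested genes and 32.9% of all genes. Over all genes called higher 56% held a GC box and over all called lower 56.8%. The KLF share of the higher trophectoderm genes was the largest of the lists examined. Other higher lists had 38.5% (proteasome), 36.4% (pluripotency), 24.6% (ribosomal proteins), 23.2% (respiratory chain) and 23.1% (compaction). Among lower genes the KLF share was 37.5% for the 2-cell list and 24.3% for the oocyte list. A GC box was in 46.7% of higher trophectoderm, 69.2% of higher compaction and 0 of 8 lower 2-cell promoters. Differences between these shares were not tested. A match describes letters in this window and not a bound site.

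Junction, polarity and adhesion genes were partly higher. Of 55 tested members of the compaction, junction and blastocoel pump list, 18 were higher (32.7%) and 5 lower (9.09%). Over all genes these shares were 18.9% and 19.8%. The median log2 fold change of the list was 0.86. The number higher was 10 without siControl morula replicate 1 and 11 without WT replicate 2, and the number lower was 3 without either morula library or without WT replicate 1. Cdh1 (E-cadherin) had 67.4 and 52.8 CPM in siControl morulae and 17.2 and 15.3 CPM in WT 4-cell embryos, a log2 fold change of 1.89 (SE 0.386; edgeR adjusted p 0.00139). Its cytoplasmic partner Ctnna1 was higher, with a log2 fold change of 1.24 (SE 0.302), whereas Ctnnb1 (beta-catenin) had 102 and 100 CPM in siControl morulae and 84.8 and 80.2 CPM in WT 4-cell embryos and was not called.

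Tight junction claudins were higher, while their scaffold was not called. Cldn4 had 140 and 152 CPM in siControl morulae and 0.430 and 3.48 CPM in WT 4-cell embryos, a log2 fold change of 6.21 (SE 1.55; edgeR adjusted p 0.00863), and 5.39 without WT replicate 1 (edgeR adjusted p 0.0678). Cldn7 had 165 and 142 CPM in siControl morulae and 17.3 and 38.9 CPM in WT 4-cell embryos, and Cldn6, Ocln and Cgn were higher as well. The scaffold gene Tjp1 had 38.2 and 34.9 CPM in siControl morulae and 28 and 28.1 CPM in WT 4-cell embryos and was not called. Gjb5, a gap junction connexin, was higher and had 14.8 and 9.79 CPM in siControl morulae and 0 and 0.174 CPM in WT 4-cell embryos. Gja1 had 288 and 307 CPM in siControl morulae and 109 and 153 CPM in WT 4-cell embryos, a log2 fold change of 1.18 (SE 0.445; edgeR adjusted p 0.0483), which missed the threshold without each library in turn, at adjusted p values between 0.0812 and 0.232. Cldn6 missed it without WT replicate 1 (0.0538), and Ocln without siControl morula replicate 1 (0.0813) or WT replicate 2 (0.0548).

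Apical polarity genes went both ways. Ezr (ezrin), which links actin to the apical membrane, had 18.1 and 15.6 CPM in siControl morulae and 2.34 and 2.03 CPM in WT 4-cell embryos, while its relative Rdx (radixin) was lower, at 50.6 and 57.7 CPM in siControl morulae and 99.9 and 116 CPM in WT 4-cell embryos. Prkcz (atypical protein kinase C zeta) and Pard6b were higher by 1.89 and 1.75 on the log2 scale, and Prkci and Pard3 were not called. Rdx missed the threshold without each library in turn (edgeR adjusted p between 0.088 and 0.175), and Ezr and Pard6b without at least 1 library (between 0.0514 and 0.0674). Rock1, a kinase that drives actomyosin contraction, was lower, at 75.7 and 91.9 CPM in siControl morulae and 323 and 330 CPM in WT 4-cell embryos (log2 fold change -1.96, SE 0.232; edgeR adjusted p 1.92e-05). Its relative Rock2 was not called. Among sodium pump subunits, Atp1b3 was lower, at 172 and 164 CPM in siControl morulae and 553 and 708 CPM in WT 4-cell embryos. Atp1b1 had 13.5 and 16.5 CPM in siControl morulae and 30.6 and 10.9 CPM in WT 4-cell embryos, with overlapping groups.

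Hippo pathway genes went both ways. Of 30 tested members, 6 were higher (20%) and 5 lower (16.7%), close to the shares over all genes. Without siControl morula replicate 2 the counts were 3 and 3, and the number lower was 2 without siControl morula replicate 1 and 3 without WT replicate 1. The co-activator Wwtr1 (TAZ) had 113 and 105 CPM in siControl morulae and 36.0 and 17.3 CPM in WT 4-cell embryos, a log2 fold change of 2.03 (SE 0.295; edgeR adjusted p 9.79e-05). Its relative Yap1 had 28.6 and 22.9 CPM in siControl morulae and 39.8 and 35.5 CPM in WT 4-cell embryos and was not called. Amot, the junctional scaffold that activates the kinases in inner cells, had 32.7 and 42.1 CPM in siControl morulae and 4.86 and 4.35 CPM in WT 4-cell embryos (log2 fold change 3.02, SE 0.564; edgeR adjusted p 0.000701). Lats1, a kinase of YAP1, was lower, at 7.56 and 8.04 CPM in siControl morulae and 41.2 and 42 CPM in WT 4-cell embryos, and its relative Lats2 had 13.9 and 14.5 CPM in siControl morulae and 4.36 and 14.9 CPM in WT 4-cell embryos. Stk4, Vgll4, Map4k4 and Ctgf were also higher, and Nf2, Ajuba, Limd1 and Taok1 also lower. Of these, Stk4, Vgll4, Map4k4, Ctgf, Nf2, Ajuba and Limd1 missed the threshold without at least 1 library, at edgeR adjusted p values between 0.0525 and 0.204.

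Of 16 tested primitive endoderm genes, 3 were higher (18.8%) and 2 lower (12.5%), beside 18.9% and 19.8% over all genes, and 5 were higher without WT replicate 2. Gata6, the factor that directs inner cells to primitive endoderm, had 185 and 168 CPM in siControl morulae and 7.01 and 18.8 CPM in WT 4-cell embryos, a log2 fold change of 3.78 (SE 0.496; edgeR adjusted p 4.40e-05). Its relative Gata4 was lower, at 4.07 and 3.04 CPM in siControl morulae and 20.6 and 29.1 CPM in WT 4-cell embryos (log2 fold change -2.80, SE 0.413; edgeR adjusted p 0.000105). The groups did not overlap for either factor. Dab2, described above with the trophectoderm genes, is also among the higher members of the primitive endoderm list. Of 31 FGF and ERK signalling genes 7 were higher and 7 lower (22.6% each), near the 18.9% and 19.8% over all genes. The counts were 3 higher and 5 lower without siControl morula replicate 1, 5 and 4 without siControl morula replicate 2, 4 and 4 without WT replicate 1, and 2 and 8 without WT replicate 2. The feedback inhibitor Spry2 was higher, at 34.7 and 30.7 CPM in siControl morulae and 13.5 and 10.2 CPM in WT 4-cell embryos.

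**Figure D3:**
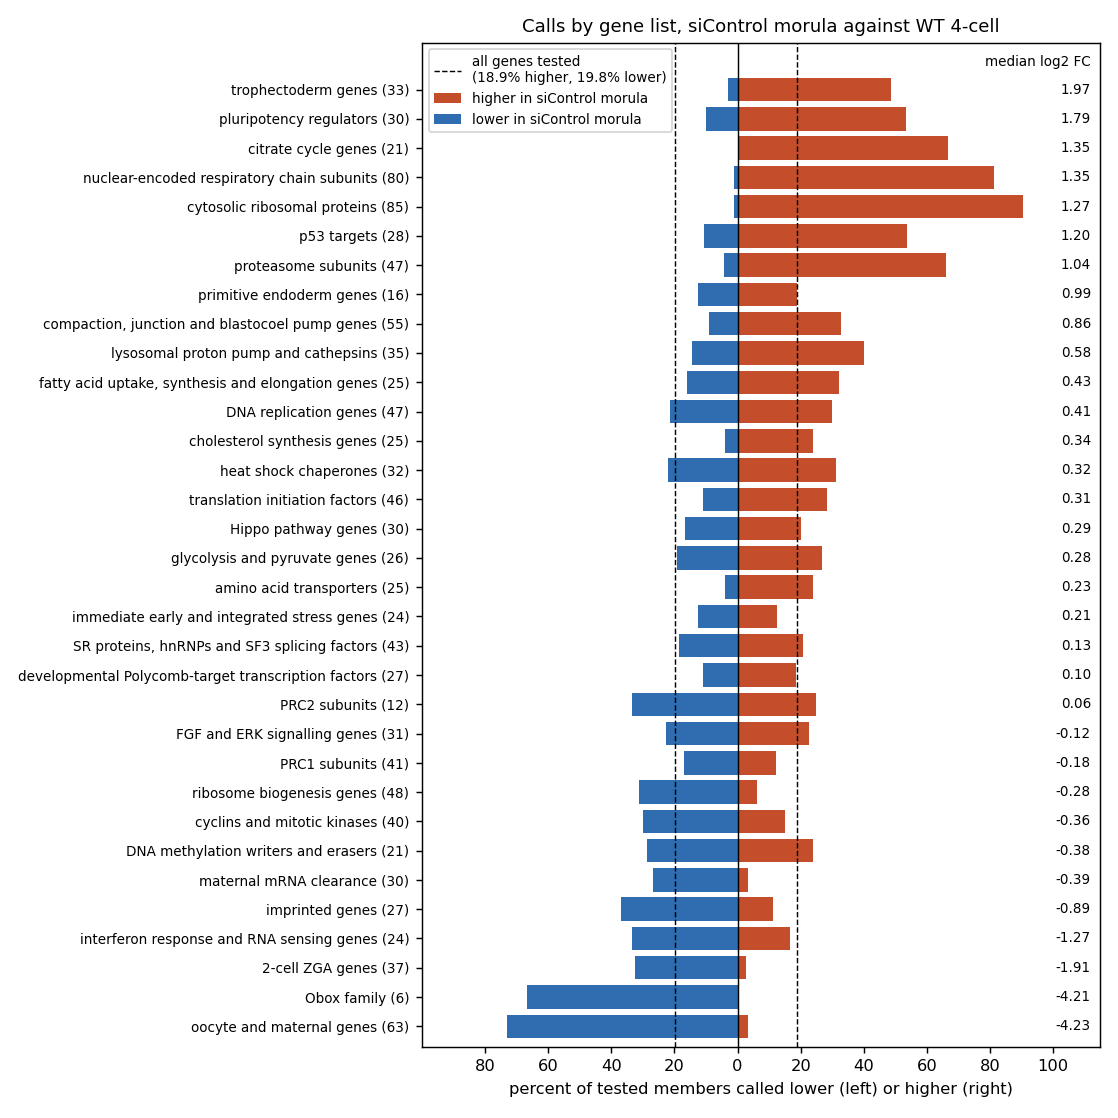
Share of the tested members of each gene list called higher (right) or lower (left) in siControl morula than in WT 4-cell, with the share over all genes as dashed lines and the median log2 fold change at the right. Medians were 1.97 for trophectoderm genes and -4.23 for oocyte and maternal genes, and 13 of the lists shown had a median above 0 here and below 0 on the log2(TPM + 1) scale.

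Oocyte and maternal genes were mostly lower in the morulae. Of 63 tested members, 46 were lower (73.0%) and 2 higher, with a median log2 fold change of -4.23. The list held 1.54% and 1.47% of all TPM in siControl morulae and 3.06% and 3.01% in WT 4-cell embryos. Its summed CPM was 12311 and 11678 in siControl morulae and 15177 and 16762 in WT 4-cell embryos. Most of that sum was Dppa3, which was not called, so these totals say little about the other members. Gdf9, an oocyte growth factor, had 1.39 and 0.923 CPM in siControl morulae and 54.5 and 34.0 CPM in WT 4-cell embryos, a log2 fold change of -5.25 (SE 0.400; edgeR adjusted p 8.32e-07). Bmp15, its partner ligand, had 0.926 and 1.80 CPM in siControl morulae and 67.9 and 15.9 CPM in WT 4-cell embryos. Nlrp14, an NLR protein needed by the early embryo, had 9.60 and 5.90 CPM in siControl morulae and 280 and 199 CPM in WT 4-cell embryos (log2 fold change -4.95, SE 0.322; edgeR adjusted p 2.83e-07). In all 3 genes both 4-cell libraries lay above both morula libraries.

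The receptor Kit and the F-box genes Fbxw15 and Fbxw24 followed, and leaving out 1 library gave 35 to 43 members lower and 1 or 2 higher. Not every gene of the list was lower. These libraries do not separate RNA inherited from the oocyte from RNA made by the embryo. Dppa3 (STELLA), a protector of DNA methylation in the zygote, had 11242 and 10654 CPM in siControl morulae and 10589 and 13315 CPM in WT 4-cell embryos, with overlapping groups, and was among the 8 genes of highest TPM at both stages. siControl late 2-cell embryos, from the same experiment as the morulae, had 129 and 68.4 CPM of Gdf9 at 36 hours, above both 4-cell libraries.

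Genes of 2-cell genome activation were lower more often than higher, and the size depended on the WT library. Of 37 tested members, 12 were lower (32.4%) and 1 higher (2.7%), beside 19.8% and 18.9% over all genes. The other 24 were not called, and the median log2 fold change was -1.91. The mean level of the list, as log2(CPM + 1), was 3.24 and 3.37 in siControl morulae and 5.31 and 3.58 in WT 4-cell embryos. WT replicate 2 therefore stood close to the morulae and WT replicate 1 between them and the siControl late 2-cell libraries, at 6.27 and 6.54. In the 6 Hetero KO and Homo KO 4-cell libraries, titled as Pcgf5MT2C_Mm knockouts, the same level ran from 4.20 to 5.6. The median was -0.20 without WT replicate 1, with 8 lower and 5 higher, and -2.43 without WT replicate 2, with 18 lower and 2 higher. The number lower was 7 without siControl morula replicate 1 and 8 without siControl morula replicate 2.

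Zscan4d, of the 2-cell specific Zscan4 cluster, had 0.171 and 0.316 CPM in siControl morulae and 39.0 and 5.86 CPM in WT 4-cell embryos, a log2 fold change of -6.50 (SE 0.996; edgeR adjusted p 0.000411). Zscan4f, on chromosome 7 at 11397915 to 11402318, had no count in siControl morulae and 43.4 and 6.44 CPM in WT 4-cell embryos, at least 683-fold lower. Usp17lb, a deubiquitinase, had 1.58 and 2.04 CPM in siControl morulae and 210 and 82.3 CPM in WT 4-cell embryos. WT replicate 1 held more of each than WT replicate 2, and both held more than either morula library. Reads shared between near-identical copies could be split, so values of the Zscan4, Usp17l, Tdpoz, Tcstv and Obox genes are uncertain.

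Obox genes, homeobox factors of oocyte and 2-cell embryo, were lower in 4 of 6 tested members, with a median log2 fold change of -4.21. Without siControl morula replicate 1 the count was 1, and without siControl morula replicate 2 or WT replicate 1 it was 2. Obox3 had 3.07 and 0.146 CPM in siControl morulae and 112 and 14.3 CPM in WT 4-cell embryos (log2 fold change -5.29, SE 1.13; edgeR adjusted p 0.00370). Obox6 had 959 and 1168 CPM in siControl morulae and 1974 and 2537 CPM in WT 4-cell embryos. Its log2 fold change was -1.08 (SE 0.278; edgeR adjusted p 0.00645), and -0.98 without siControl morula replicate 1 (edgeR adjusted p 0.0578). Ddit4l was the 1 member of the 2-cell list that was higher, at 90.4 and 110 CPM in siControl morulae and 8.42 and 9.28 CPM in WT 4-cell embryos.

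**Figure D4:**
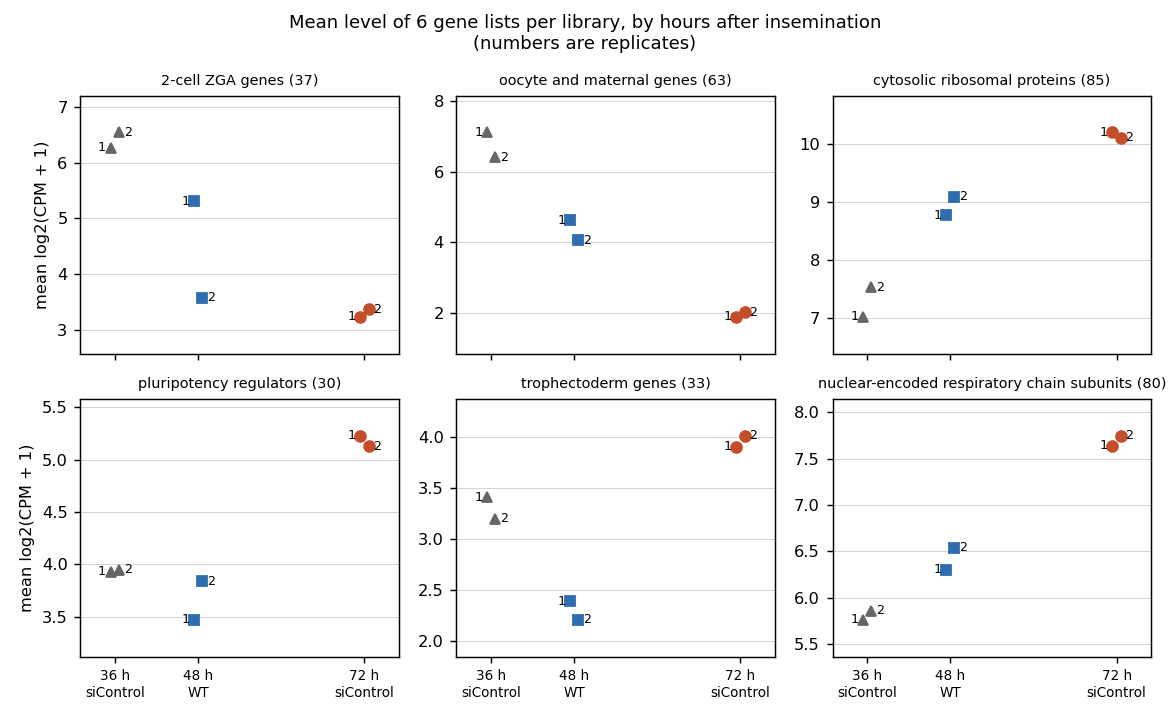
Mean level of 6 gene lists, as log2(CPM + 1), in each library of siControl late 2-cell (36 hours), WT 4-cell (48 hours) and siControl morula (72 hours) embryos, with replicate numbers beside the points. Ribosomal protein and respiratory chain lists were lowest at 36 hours and highest at 72 hours, oocyte genes the reverse, and the 2 WT libraries stood apart for 2-cell genes, at 5.31 and 3.58. Trophectoderm and pluripotency lists were lowest in the WT 4-cell libraries and did not follow the order of hours.

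Ribosomal proteins and proteasome subunits were mostly higher in the morulae. Of 85 cytosolic ribosomal proteins, 77 were higher (90.6%) and 1 lower, with a median log2 fold change of 1.27. Limma on log2(TPM + 1) called 52 of these proteins higher and 1 lower. Together the ribosomal proteins took 24.3% and 23.2% of all TPM in siControl morulae and 16.2% and 17.3% in WT 4-cell embryos. Rpl26 had 651 and 558 CPM in siControl morulae and 127 and 123 CPM in WT 4-cell embryos, a log2 fold change of 2.27 (SE 0.193; edgeR adjusted p 1.59e-06). Rps29 had 2451 and 2352 CPM in siControl morulae and 700 and 811 CPM in WT 4-cell embryos (log2 fold change 1.67, SE 0.198; edgeR adjusted p 1.93e-05). Processed pseudogenes of ribosomal proteins could share reads with these genes.

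Of 48 tested ribosome biogenesis genes, 3 were higher (6.25%) and 15 lower (31.2%), beside 18.9% and 19.8% over all genes. The number lower was 7 without siControl morula replicate 2, and 1 was higher without either morula library or without WT replicate 1. Utp15, of the small subunit processome, had 64.5 and 56.8 CPM in siControl morulae and 222 and 166 CPM in WT 4-cell embryos, a log2 fold change of -1.68 (SE 0.268; edgeR adjusted p 0.000203). Nhp2, a small protein of the H/ACA particles that modify ribosomal RNA, was higher, at 1216 and 1233 CPM in siControl morulae and 502 and 593 CPM in WT 4-cell embryos. Of 46 translation initiation factors, 13 were higher and 5 lower, of which 3 were lower without siControl morula replicate 1 and 2 without replicate 2. With all libraries the shares were 28.3% higher and 10.9% lower, beside 18.9% and 19.8% over all genes. Eif5a was higher, at 4552 and 3496 CPM in siControl morulae and 1032 and 1080 CPM in WT 4-cell embryos.

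Proteasome subunits were higher in 31 of 47 tested members (66.0%) and lower in 2, with a median log2 fold change of 1.04. On log2(TPM + 1) limma called 20 higher and 8 lower. Psmb6, a catalytic subunit, had 1013 and 1110 CPM in siControl morulae and 182 and 224 CPM in WT 4-cell embryos, a log2 fold change of 2.39 (SE 0.261; edgeR adjusted p 1.01e-05). Psmd8, of the regulatory cap, had 469 and 428 CPM in siControl morulae and 90.3 and 111 CPM in WT 4-cell embryos. For both genes the lower morula library stood well above the higher 4-cell library.

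Mitochondrial energy genes were higher in the morulae. Of 80 nuclear-encoded respiratory chain subunits, 65 were higher (81.2%) and 1 lower, with a median log2 fold change of 1.35, and of 21 citrate cycle genes 14 were higher (66.7%) and 0 lower in edgeR, also 0 at an unadjusted p under 0.05 and in DESeq2, and 2 lower in limma. Limma on log2(TPM + 1) called 44 respiratory chain subunits higher and 5 lower, and 10 citrate cycle genes higher. Cox6c, a subunit of cytochrome oxidase, had 1502 and 1639 CPM in siControl morulae and 198 and 286 CPM in WT 4-cell embryos, a log2 fold change of 2.7 (SE 0.238; edgeR adjusted p 1.96e-06). Ndufa3, of complex I, had 299 and 269 CPM in siControl morulae and 33.0 and 30.3 CPM in WT 4-cell embryos. Idh1, the cytosolic isocitrate dehydrogenase, had 224 and 211 CPM in siControl morulae and 10 and 8.12 CPM in WT 4-cell embryos (log2 fold change 4.58, SE 0.791; edgeR adjusted p 0.000721).

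Glycolysis and pyruvate genes moved both ways, with 7 of 26 tested members higher (26.9%) and 5 lower (19.2%), beside 18.9% and 19.8% over all genes. The number higher was 3 without either morula library or without WT replicate 1. Ldhb, the heart-type lactate dehydrogenase abundant in oocytes, had 4.80 and 8.82 CPM in siControl morulae and 225 and 110 CPM in WT 4-cell embryos, a log2 fold change of -4.62 (SE 0.442; edgeR adjusted p 4.67e-06). Pgam1, phosphoglycerate mutase, was higher, at 234 and 209 CPM in siControl morulae and 83.6 and 76.6 CPM in WT 4-cell embryos. The muscle and embryo pyruvate kinase gene Pkm was lower, at 16.3 and 19.1 CPM in siControl morulae and 79.2 and 38.9 CPM in WT 4-cell embryos. Lipid genes added Fabp5, at 154 and 174 CPM in siControl morulae and 3.99 and 6.84 CPM in WT 4-cell embryos, and Lpin1, at 10 and 11.4 CPM in siControl morulae with no count in WT 4-cell embryos, at least 120-fold higher.

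Gene length moved with these results. In the shortest quintile of genes, with transcripts of 85 to 1424 bases, 35% were higher and 14.4% lower in siControl morulae, and in the longest quintile 8.45% were higher and 29.7% lower. The median log2 fold change was 0.62 in the shortest quintile and -0.51 in the longest. Weighting the share over all genes to the length quintiles of each list gave 33.4% higher for ribosomal proteins, 32.4% for respiratory chain subunits, 28.2% for the proteasome and 22.2% for the citrate cycle, against the 90.6%, 81.2%, 66.0% and 66.7% above. Taking the median log2 fold change of its length quintile from each gene left list medians of 0.66, 0.73, 0.47 and 0.99, in the same order. Without that step the list medians were 1.27, 1.35, 1.04 and 1.35. The part of the differences in fragment length and depth between the groups in the trend with length was not tested.

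**Figure D5:**
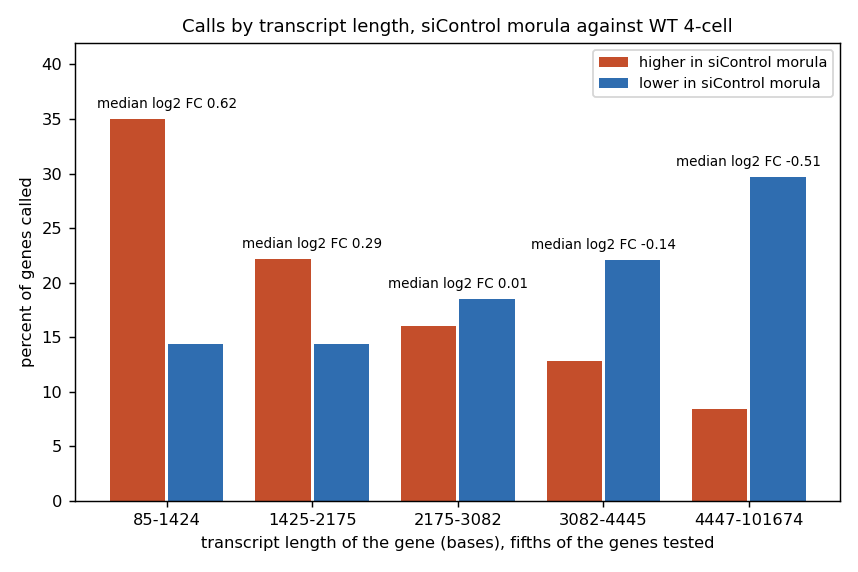
Percent of genes called higher or lower in siControl morula than in WT 4-cell, in quintiles of the 13671 tested genes by transcript length in bases. The share higher was 35% in the shortest quintile and 8.45% in the longest, and the share lower 14.4% and 29.7%.

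Cell cycle regulators went both ways. Of 40 cyclins and mitotic kinases and their regulators, 6 were higher (15.0%) and 12 lower (30.0%), beside 18.9% and 19.8% over all genes. The counts were 2 higher and 7 lower without siControl morula replicate 1, and 4 and 8 without replicate 2. Cdkn1a (p21), an inhibitor of cyclin-dependent kinases and a target of p53, had 404 and 394 CPM in siControl morulae and 31.3 and 29.5 CPM in WT 4-cell embryos, a log2 fold change of 3.71 (SE 0.269; edgeR adjusted p 7.41e-07). Rb1, the retinoblastoma protein, was lower, at 5.34 and 6.46 CPM in siControl morulae and 48.1 and 48.4 CPM in WT 4-cell embryos (log2 fold change -3.03, SE 0.386; edgeR adjusted p 3.24e-05). Wee2, the oocyte kinase that holds meiosis, had 0.317 and 0.0729 CPM in siControl morulae and 31.7 and 8.58 CPM in WT 4-cell embryos, and missed the threshold without siControl morula replicate 1 (edgeR adjusted p 0.053) or replicate 2 (0.0778). Cdk4 was higher and Mki67, Cdc25c and Cdkn1c lower.

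Of 28 p53 targets, 15 were higher (53.6%) and 3 lower (10.7%), beside 18.9% and 19.8% over all genes. The median log2 fold change was 1.20. The number higher was 9 without siControl morula replicate 2, 9 without WT replicate 1 and 9 without WT replicate 2. Perp, a desmosomal membrane protein, had 151 and 145 CPM in siControl morulae and 1.04 and 1.74 CPM in WT 4-cell embryos, a log2 fold change of 6.72 (SE 0.846; edgeR adjusted p 5.07e-05). Bax, which permeabilises mitochondria in apoptosis, had 166 and 163 CPM in siControl morulae and 56.3 and 71.0 CPM in WT 4-cell embryos. Rrm2b, a ribonucleotide reductase subunit, was lower, at 4.66 and 5.27 CPM in siControl morulae and 55.4 and 45.5 CPM in WT 4-cell embryos. Electroporation cannot be told apart from stage for these genes, and siControl late 2-cell embryos, electroporated alike, had 85.0 and 57.8 CPM of Cdkn1a and 0.961 and 3.21 CPM of Perp at 36 hours.

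Of 41 tested subunits and partners of Polycomb repressive complex 1 (PRC1), which ubiquitinates histone H2A, 5 were higher (12.2%) and 7 lower (17.1%), beside 18.9% and 19.8% over all genes, and 3 were higher whichever library was left out. Pcgf5, the subunit the study targets, maps to chromosome 19 at 36348329 to 36460970 (GRCm38.p6). It had 232 and 158 CPM in siControl morulae and 319 and 290 CPM in WT 4-cell embryos, a log2 fold change of -0.64 (SE 0.346) that was not called (edgeR adjusted p 0.154), although the groups did not overlap. siControl late 2-cell embryos had 349 and 867 CPM of Pcgf5 at 36 hours. Its paralogue Bmi1 (PCGF4) was lower, at 31.1 and 32.8 CPM in siControl morulae and 424 and 252 CPM in WT 4-cell embryos (log2 fold change -3.40, SE 0.350; edgeR adjusted p 6.44e-06). Pcgf1 and Pcgf6, of other variant complexes, were lower, with log2 fold changes of -2.12 and -1.83, and Pcgf3 had 24.0 and 20.1 CPM in siControl morulae and 13.2 and 13.6 CPM in WT 4-cell embryos and was not called. The catalytic subunit Rnf2 had 195 and 198 CPM in siControl morulae and 215 and 332 CPM in WT 4-cell embryos and was not called, except as lower without WT replicate 1 (edgeR adjusted p 0.0277). Scml2, a germline PRC1 partner, was lower, at 0.366 and 0.243 CPM in siControl morulae and 16.6 and 7.71 CPM in WT 4-cell embryos.

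In the PRC2 list, 3 of 12 tested members were higher and 4 lower, beside 18.9% and 19.8% over all genes. Only 2 were lower without siControl morula replicate 1. Whether so short a list differed from all genes was not tested. Jarid2, which recruits the complex, had 213 and 198 CPM in siControl morulae and 24.0 and 41.5 CPM in WT 4-cell embryos, a log2 fold change of 2.65 (SE 0.256; edgeR adjusted p 4.19e-06). Suz12, a core subunit, was lower, at 313 and 382 CPM in siControl morulae and 645 and 793 CPM in WT 4-cell embryos, and Eed, another core subunit, was higher, at 436 and 454 CPM in siControl morulae and 129 and 209 CPM in WT 4-cell embryos. The core subunits thus differed in direction.

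The TET dioxygenases, which oxidise methylated cytosine, went in opposite directions. Tet2 had 49.4 and 45.6 CPM in siControl morulae and 2.34 and 2.90 CPM in WT 4-cell embryos, a log2 fold change of 4.18 (SE 0.575; edgeR adjusted p 6.12e-05). Tet1 had 37.0 and 23.3 CPM in siControl morulae and 141 and 150 CPM in WT 4-cell embryos, a log2 fold change of -2.27 (SE 0.312; edgeR adjusted p 6.03e-05). Tet3, the dioxygenase of the oocyte, had 3.34 and 5.20 CPM in siControl morulae and 13.1 and 6.20 CPM in WT 4-cell embryos and was not called, except as lower without WT replicate 2 (edgeR adjusted p 0.0302). Among writers, Dnmt3b and its cofactor Dnmt3l were higher by 1.93 and 2.42 on the log2 scale, the maintenance enzyme Dnmt1 was lower by a log2 fold change of -1.52 (SE 0.385; edgeR adjusted p 0.00596, or 0.0528 without siControl morula replicate 2), and Dnmt3a was not called. Zfp57, which protects imprints, was lower, at 9.73 and 14.9 CPM in siControl morulae and 44.7 and 33.7 CPM in WT 4-cell embryos, but not without siControl morula replicate 1 (edgeR adjusted p 0.0692). Of 21 tested members of the list, 5 were higher (23.8%) and 6 lower (28.6%), beside 18.9% and 19.8% over all genes. The number higher was 3 without siControl morula replicate 1 or either WT library, and the number lower 3 without siControl morula replicate 1.

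Imprinted genes were lower in 10 of 27 tested members (37.0%) and higher in 3 (11.1%), beside 19.8% and 18.9% over all genes. Usp29, a paternally expressed gene, had 6.56 and 6.71 CPM in siControl morulae and 135 and 186 CPM in WT 4-cell embryos, a log2 fold change of -4.59 (SE 0.425; edgeR adjusted p 2.87e-06). The long noncoding RNA Kcnq1ot1 had 8.97 and 11.1 CPM in siControl morulae and 62.7 and 80.9 CPM in WT 4-cell embryos. Snrpn was higher, at 710 and 579 CPM in siControl morulae and 108 and 153 CPM in WT 4-cell embryos. The files do not separate the parental alleles.

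The largest increases were of genes at or near 0 in 4-cell embryos. Hist1h2ad, a replication-dependent histone H2A gene on chromosome 13 at 23574381 to 23574915, had 100 and 62.0 CPM in siControl morulae and no count in WT 4-cell embryos, at least 907-fold higher. Replication-dependent histone transcripts mostly lack the polyA tail on which this library selects, and histone copies share reads. Serpinb9b, a clade B serpin, had 66.6 and 63.3 CPM in siControl morulae and no count in WT 4-cell embryos, at least 726-fold higher, and Serpinb6c of the same clade was at least 359-fold higher. Trim38, a RING-finger ubiquitin ligase, and Camk2d, a calcium-dependent kinase, were at least 337-fold and 225-fold higher against WT libraries with no count. Crip2, a LIM-domain protein, had 450 and 419 CPM in siControl morulae and 2.4 and 2.09 CPM in WT 4-cell embryos, a log2 fold change of 7.60 (SE 0.457; edgeR adjusted p 2.31e-07). Stard10, a lipid transfer protein, had 87.0 and 65.5 CPM in siControl morulae and 0.307 and 0.406 CPM in WT 4-cell embryos. Dap, Clic3, Cryab and Apoa1 were also among the 12, each with 0.37 CPM or less in either WT library.

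The 12 largest decreases included genes of the 2-cell and oocyte lists. Unc13c, named for a synaptic priming protein, had 1.66 and 3.28 CPM in siControl morulae and 771 and 411 CPM in WT 4-cell embryos, a log2 fold change of -7.90 (SE 0.594; edgeR adjusted p 1.42e-06). Oog3, an oogenesin of the PRAME family, had 1.93 and 4.23 CPM in siControl morulae and 667 and 213 CPM in WT 4-cell embryos. Prlr, the prolactin receptor, had 0.317 and 0.0972 CPM in siControl morulae and 74.1 and 27.8 CPM in WT 4-cell embryos. In siControl late 2-cell embryos these 3 genes had 3346 and 2597 CPM, 6251 and 5968 CPM, and 186 and 177 CPM in the same order. Zscan4f, Tmprss11a, Ccdc69, Tuba3b, D6Ertd527e, Wee2, Fbxw14, Zscan4d and Usp17lb were the other 9 of the 12, of which D6Ertd527e missed the threshold without siControl morula replicate 1 (edgeR adjusted p 0.0992), without siControl morula replicate 2 (0.102) and without WT replicate 1 (0.0516).

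Markers of other cells were scarce on both sides. Of 20 cumulus and granulosa markers 3 were tested, and their list summed to 298 and 312 CPM in siControl morulae and 128 and 168 CPM in WT 4-cell embryos, nearly all of it Gja1, a connexin that embryos also express. Has2, Ptx3, Fshr and Amh had no count in the 4 libraries. Tnfaip6, a matrix protein of cumulus cells, had no count in siControl morulae and 1.72 and 0.754 CPM in WT 4-cell embryos, at least 33.9-fold lower. Sperm markers summed to 29.6 and 37.8 CPM in siControl morulae and 33.3 and 34.4 CPM in WT 4-cell embryos, with 4 of 17 tested. Blood markers summed to 19.5 and 17.0 CPM in siControl morulae and 49.1 and 21.3 CPM in WT 4-cell embryos, nearly all of it the alpha-globin gene Hba-a2, with 2 of 18 tested and Ptprc at 0. Hba-a2 had 18.2 and 15.6 CPM in siControl morulae and 47.1 and 19.2 CPM in WT 4-cell embryos, shares reads with its copy Hba-a1, and was lower without WT replicate 2 alone (edgeR adjusted p 0.0123). Fibroblast markers summed to 5.02 and 8.67 CPM in siControl morulae and 13.7 and 9.80 CPM in WT 4-cell embryos, with 5 of 13 tested. In these last 3 lists edgeR called 0 genes, with 1 gene in each at an unadjusted p under 0.05, DESeq2 called 1 fibroblast marker, and limma 2 sperm markers and 1 blood marker. The part of other cells in the results was not tested.

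Genes were also sought that were present in all libraries of 1 experiment and nearly absent from the other. No gene (0) stood at 5 CPM or more in all 8 knockdown libraries and under 0.5 CPM in all 8 4-cell libraries. The long noncoding RNA Lincenc1 on chromosome 13 showed the reverse, with 8.21 to 21.7 CPM in the 8 4-cell libraries and at most 0.12 CPM in the knockdown libraries at 36 and 72 hours. The 8 4-cell libraries are all of 1 stage, so this search cannot separate experiment from the 4-cell stage. It finds only genes that are nearly on or off, so a count of 0 does not show that the experiments were alike.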

How the data were processed

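RNA sequencing libraries were analysed from the per-gene tables deposited by the authors, which hold expected counts, TPM and FPKM, per the file headers. The submitters' processing notes name STAR 2.7.10, RSEM 1.3.3, Bowtie2 2.4.5, deepTools and the build mm10, with no further settings. Expected counts were rounded to whole numbers and fitted with edgeR 4.0.16 (R 4.3.3) over all 16 RNA libraries in 7 groups, with TMM scaling, robust quasi-likelihood dispersions and 9 residual degrees of freedom. Genes passed filterByExpr (minimum count 10) over the 4 libraries compared, which left 13671 of 24411. Tests were two-sided, adjusted by Benjamini-Hochberg over all genes tested, and called at 0.05. The deposited TPM gave shares of transcripts, and the deposited FPKM was not used. Depth ran from 14329188 to 48876604 counts over the 4 libraries compared and from 14310634 to 55620137 over the 16 fitted. A gene without counts in a group was set against a floor of 3 counts over that group, and floors cover counting error only.

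Genes were named as the 12 largest rises and falls without overlap of the groups and at 20 CPM or more, the 6 members of smallest p of each list, all members of the pluripotency, trophectoderm, junction, Hippo, PRC1 and DNA methylation lists, and stage markers. Other genes named were chosen after their values were seen. One result that the rule names is not reported here. Members and lists were chosen with earlier results of these data known. Symbols were matched to RefSeq for 23194 genes. The fit was tested on simulated counts of 13671 genes, with 50 genes changed at each fold size. It recovered 10% of changes of 1 on the log2 scale, 60% of 2, 76% of 3 and 94% of 4, with 8 false calls. A gene that was not called may therefore still differ between the groups. Alternatives were DESeq2 1.42.0 (size factors and Wald test), limma 3.58.1 on log2(TPM + 1), no filter on low counts, the 4 libraries alone, a replicate block, thinning to 14310628 counts, a test beyond a log2 fold change of 1, and leaving out each library.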

Additional observations from a re-analysis of the deposited data

How the results depend on the processing

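The count of genes higher ranged from 1726 to 2029 and of genes lower from 1715 to 2400 when 1 library was left out. A test beyond a log2 fold change of 1 gave 1084 higher and 1225 lower. Of 171 genes named, 150 were called, and 116 of these kept call and direction without each library in turn. Replicate numbers are shared by the groups, and deviations of same-numbered libraries correlated at 0.02 over 13671 genes. With only 2 pairs the libraries share only a number, and the replicate block gave 2496 higher and 2594 lower genes and moved the compaction median to 1.05.

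On log2(TPM + 1) the medians were -2.64 for oocyte genes, 0.87 for pluripotency, 0.72 for trophectoderm, 0.10 for compaction, 0.61 for ribosomal proteins, 0.44 for the proteasome, 0.64 for the respiratory chain, 0.75 for the citrate cycle and 0.55 for p53 targets. The cause was not tested. There the medians were below 0, and in edgeR above 0, for Hippo (-0.16), initiation factors (-0.29), glycolysis (-0.22), replication (-0.13), heat shock (-0.26), stress (-0.22), amino acid transport (-0.10), cholesterol (-0.10), fatty acid (-0.12), lysosome (-0.02), splicing (-0.45), PRC2 (-0.52), developmental Polycomb targets (-0.20) and fibroblast genes (-0.10). Thinning gave 1.78 for trophectoderm, 1.00 for compaction and -0.26 for fibroblast genes, and no filter on low counts 0.93 for compaction.

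Leaving out 1 library at a time, the medians ran from -2.43 to -0.20 for 2-cell genes, -4.62 to -3.20 for Obox genes, -4.58 to -3.46 for oocyte genes, -0.38 to 0.01 for maternal mRNA clearance, 1.68 to 2.31 for pluripotency regulators, 1.56 to 2.28 for trophectoderm genes, 0.63 to 1.11 for compaction, 0.04 to 0.74 for Hippo pathway genes, 0.75 to 1.72 for primitive endoderm genes, 0.49 to 1.13 for lysosomal genes, -1.69 to -0.53 for interferon response genes, -0.09 to 0.20 for PRC2 subunits, -0.32 to 0.30 for developmental Polycomb targets, -0.16 to 0.49 for glycolysis and pyruvate genes, 1.13 to 1.60 for citrate cycle genes, 1.19 to 1.44 for p53 targets, -1.24 to 0.57 for fibroblast and feeder markers and -0.81 to 0.17 for Y-linked genes. The lowest and highest median of the first list came without WT replicate 2 and WT replicate 1.

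Depth differed between the groups by more than the libraries within them did, and 2 libraries a group leave the spread largely to the fit over all groups. A library left alone in its group is assumed to vary like the others.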

Other observations

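Of 32 tested chaperones and heat shock genes 10 were higher and 7 lower, or 4 lower without siControl morula replicate 2. With all libraries the shares were 31.2% higher and 21.9% lower, beside 18.9% and 19.8% over all genes. Hsp90aa1, a cytosolic chaperone, had 7574 and 7678 CPM in siControl morulae and 1892 and 2667 CPM in WT 4-cell embryos, a log2 fold change of 1.74 (SE 0.213; edgeR adjusted p 2.52e-05). Dnajc3, a co-chaperone of the endoplasmic reticulum, had 38.5 and 45.9 CPM in siControl morulae and 142 and 206 CPM in WT 4-cell embryos, a log2 fold change of -2.04 (SE 0.236; edgeR adjusted p 1.55e-05). Its partner Hspa5 was lower, with a log2 fold change of -2.06, and the cytosolic co-chaperone Dnaja1 higher, with one of 1.91. Hsf2, a heat shock transcription factor, had 47.3 and 42 CPM in siControl morulae and 2.34 and 1.62 CPM in WT 4-cell embryos. Among 35 lysosomal genes 14 were higher (40.0%) and 5 lower (14.3%), beside the same shares over all genes. On log2(TPM + 1) limma called 12 lysosomal genes higher and 9 lower. The proton pump subunit Atp6v0b was higher, at 339 and 365 CPM in siControl morulae and 59.6 and 57.3 CPM in WT 4-cell embryos. The protease gene Ctsl was lower, at 1528 and 1623 CPM in siControl morulae and 3733 and 4961 CPM in WT 4-cell embryos.

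Of 47 tested DNA replication genes 14 were higher and 10 lower, and 7 were higher without WT replicate 1. With all libraries the shares were 29.8% higher and 21.3% lower, beside 18.9% and 19.8% over all genes. Tyms, thymidylate synthase, had 829 and 877 CPM in siControl morulae and 105 and 129 CPM in WT 4-cell embryos, a log2 fold change of 2.87 (SE 0.288; edgeR adjusted p 5.34e-06). Orc1, of the origin recognition complex, had 18 and 18.2 CPM in siControl morulae and 89.1 and 60.9 CPM in WT 4-cell embryos. Of 30 tested genes of maternal mRNA clearance, 8 were lower and 1 higher, and 3 or 4 were lower whichever library was left out, when the 1 higher member also missed the threshold. With all libraries the clearance shares were 3.33% higher and 26.7% lower, beside 18.9% and 19.8% over all genes. Cnot1, the deadenylase scaffold, was lower, at 164 and 156 CPM in siControl morulae and 357 and 310 CPM in WT 4-cell embryos. Of 25 cholesterol synthesis genes 6 were higher and 1 lower, or 2 lower without WT replicate 2. With all libraries the cholesterol shares were 24.0% higher and 4.0% lower, beside 18.9% and 19.8% over all genes. Interferon response genes had a median log2 fold change of -1.27, with 8 of 24 tested members lower (33.3%) and 4 higher (16.7%). Over all genes these shares were 19.8% and 18.9%. The median was -0.53 with 1 member higher without WT replicate 2, and -1.69 without siControl morula replicate 2, and 2 were higher without siControl morula replicate 1 or WT replicate 1. Ifitm1 had 0.634 and 2.24 CPM in siControl morulae and 16.7 and 16.2 CPM in WT 4-cell embryos, and its relative Ifitm2 had 139 and 231 CPM in siControl morulae and 7.07 and 17.3 CPM in WT 4-cell embryos. Splicing factors (9 of 43 higher, 8 lower), amino acid transporters (6 of 25 higher, 1 lower), fatty acid genes (8 of 25 higher, 4 lower), stress genes (3 of 24 higher, 3 lower), developmental Polycomb targets (5 of 27 higher, 3 lower) and Y-linked genes (1 of 8 higher) made up the remaining lists. The shares were 20.9% higher and 18.6% lower for splicing factors and 18.5% and 11.1% for Polycomb targets, beside 18.9% and 19.8% over all genes. Leaving out 1 library gave 3 to 7 splicing factors higher and 4 or 5 lower, and 1 to 3 Polycomb targets higher and 1 to 3 lower. The Y-linked call was lost without either morula library or without WT replicate 1. Lower counts also came for amino acid transporters (3 higher without siControl morula replicate 2), fatty acid genes (2 lower without siControl morula replicate 1 or WT replicate 2) and stress genes (1 lower without siControl morula replicate 2 or WT replicate 1).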
